A study of Mus musculus with 24 samples.

Results

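Described here is how fibroblasts grown from mouse embryos, and lacking the kinase PERK, responded to tunicamycin, from the 4 arrays whose titles name the PERK knockout, of 24 arrays in all. Of these, 2 arrays held RNA of untreated cells and 2 held RNA of cells kept in tunicamycin (2 µg per mL) for a labelled 12 h. The common protocol names 12 or 24 h. Untreated replicate 2 has a data file whose name refers to a mock treatment of 24 h. The Perk-null response was read beside that of wild-type cells of the same scan run, 2 untreated and 2 treated arrays, and that of cells with both copies of eIF2α changed so that alanine stands at the phosphorylated serine (eIF2α A/A), again 2 and 2 arrays with the same drug, dose and labelled time. All these cells grew in medium with fetal bovine serum, 2-mercaptoethanol and non-essential amino acids. The labels do not say how the PERK gene was disrupted, whether each genotype is 1 line or several, or whether replicates came from separate cultures, so the p-values capture the spread of these arrays alone, and that spread may be technical.

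Tunicamycin blocks the first step of N-glycan synthesis, and unglycosylated proteins then misfold in the endoplasmic reticulum (ER). Mammalian cells sense this through 3 membrane proteins: PERK, which phosphorylates eIF2α and thereby lowers protein synthesis while favouring translation of the transcription factor ATF4; IRE1, which splices the mRNA of the factor XBP1 and cuts other ER-bound RNAs; and ATF6, which is cleaved to release a transcription factor. The genes downstream of eIF2α phosphorylation are called the integrated stress response (ISR), and other kinases (GCN2, PKR and HRI) can start it too. Without PERK the other sensors remain, and the question here was which genes still responded to the drug, and how much.

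Levels are log2 processed signal minus the array's own 75th percentile of it, changes are treated minus untreated log2 differences ± SE, and a gene was called at a limma adjusted p under 0.05. The 4 Perk-null arrays lay on 2 slides of 1 scan run, each with 1 untreated and 1 treated array. The first slide held untreated replicate 1, treated replicate 2 and the 4 wild-type arrays, and the second slide held the other two. The 75th percentile ranged from 339 to 482 intensity units on the Perk-null arrays, and 48.9% to 56.4% of spots were well above background. Between arrays of a Perk-null group, genes had a median SD of 0.149 to 0.15 (log2), against 0.0722 and 0.0873 in the wild-type groups of that run. The number of arrays limits the precision.

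The targeted gene was read first. Eif2ak3, which encodes PERK, read -0.0029 and -0.47 on the untreated and -0.00065 and 0.28 on the treated arrays, against 0.80 and 1.04 on the untreated wild-type arrays. Untreated Perk-null cells lay lower by a log2 difference of -1.16 ± 0.26 (adjusted p = 0.00286), and tunicamycin changed it by 0.38 ± 0.26 (adjusted p = 0.61). Whether the probe covers the disrupted sequence is not stated, so these values do not check the label. The other eIF2α kinases, Eif2ak1 (HRI), Eif2ak2 (PKR) and Eif2ak4 (GCN2), had changes of -0.14, -0.08 and -0.13, none called.

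The Perk-null and wild-type cells also differed in sex-linked and tissue marker RNA. The Y-linked gene Eif2s3y was well above background on the untreated wild-type and on no Perk-null array, and Xist, the RNA of the silenced X chromosome, was so on the Perk-null and on none of these wild-type arrays. Of 13 fibroblast markers, 12 were well above background on all 4 Perk-null arrays and 10 were lower and 1 higher in untreated Perk-null than in wild-type cells (over all tested genes 24.7% were lower and 16.1% higher), with a summed linear level of 299 and 313 against 1336 and 1357 times the array's 75th percentile. The marker Lum (lumican) was at background on all 4 Perk-null and all 4 wild-type arrays. Of 7 tested epithelial markers, 4 were higher, with sums of 44.3 and 53.8 against 0.933 and 0.938. With tunicamycin 1 of the 13 fibroblast markers rose in Perk-null cells (2.59% of all tested genes did), and of the 7 epithelial ones 0 were called by limma and 2 had an unadjusted p under 0.05. The treated sums were 360.5 and 403 for fibroblast and 52.4 and 58.5 for epithelial markers, and their part in the responses was not tested. Genotype and cell origin cannot be told apart in any comparison with wild type. In bulk RNA, fewer cells of a type and less RNA per cell cannot be told apart either.

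The DNA in front of 8 genes that carry the pattern described below is shown first, since ER stress factors bind known elements there. RefSeq (mouse assembly GRCm38.p6) gives 250 bases before and 50 after each gene's start, and these windows were searched on both strands for the ER stress response element ERSE (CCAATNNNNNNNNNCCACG), which binds ATF6 and XBP1 with NF-Y, for ERSE-II (ATTGGNCCACG), for the XBP1 and ATF6 element UPRE (TGACGTGG) and for the C/EBP-ATF response element CARE (TGATGNAA), which binds ATF4 with C/EBP partners. Of 32851 windows of this length, 0.119% held ERSE, 0.0365% ERSE-II, 0.676% UPRE and 3.97% CARE. The 250 bases before the start are printed from 5′ to 3′ on the gene's strand, and capitals mark the match.
Hspa5 (chr2:34771840-34772089, plus strand; ERSE), the ER chaperone BiP: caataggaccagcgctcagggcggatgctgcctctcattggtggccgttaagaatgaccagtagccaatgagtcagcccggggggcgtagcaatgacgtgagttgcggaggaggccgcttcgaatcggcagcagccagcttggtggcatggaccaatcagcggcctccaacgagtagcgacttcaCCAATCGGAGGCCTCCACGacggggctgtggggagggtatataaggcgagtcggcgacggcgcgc
Creld2 (chr15:88819396-88819645, plus strand; ERSE, opposite strand), an ER folding factor: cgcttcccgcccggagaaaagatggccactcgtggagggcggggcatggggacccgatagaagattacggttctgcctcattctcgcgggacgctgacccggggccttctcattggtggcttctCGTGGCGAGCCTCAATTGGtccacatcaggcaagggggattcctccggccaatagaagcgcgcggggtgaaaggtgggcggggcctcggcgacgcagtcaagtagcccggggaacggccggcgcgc
Derl3 (chr10:75893148-75893397, plus strand; ERSE, opposite strand), an ER degradation factor: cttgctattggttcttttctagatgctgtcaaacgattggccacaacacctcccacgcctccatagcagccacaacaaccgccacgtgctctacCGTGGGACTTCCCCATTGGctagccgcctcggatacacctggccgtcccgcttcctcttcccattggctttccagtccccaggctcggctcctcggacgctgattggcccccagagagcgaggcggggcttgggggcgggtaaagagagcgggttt
Herpud1 (chr8:94386179-94386428, plus strand; CARE on the opposite strand, then ERSE-II), an ER degradation factor: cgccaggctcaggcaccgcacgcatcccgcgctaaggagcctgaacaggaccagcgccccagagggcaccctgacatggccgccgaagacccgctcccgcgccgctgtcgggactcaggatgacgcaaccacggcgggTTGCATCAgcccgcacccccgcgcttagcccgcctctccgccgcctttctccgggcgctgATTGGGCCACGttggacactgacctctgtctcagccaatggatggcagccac
Atf3 (chr1:191183334-191183583, minus strand; CARE, opposite strand), a stress transcription factor: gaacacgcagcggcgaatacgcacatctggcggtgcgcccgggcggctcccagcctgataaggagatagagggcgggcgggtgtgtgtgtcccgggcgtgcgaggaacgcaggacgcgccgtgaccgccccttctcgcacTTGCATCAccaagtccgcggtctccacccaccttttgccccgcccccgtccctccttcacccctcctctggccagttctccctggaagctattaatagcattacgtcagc
Chac1 (chr2:119350992-119351241, plus strand; CARE, opposite strand), a glutathione-degrading enzyme: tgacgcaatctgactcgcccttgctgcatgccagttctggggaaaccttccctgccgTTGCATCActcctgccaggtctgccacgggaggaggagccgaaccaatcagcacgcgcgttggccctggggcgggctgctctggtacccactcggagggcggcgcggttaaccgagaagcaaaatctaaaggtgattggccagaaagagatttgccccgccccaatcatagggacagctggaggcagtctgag
Asns (chr6:7693210-7693459, minus strand; CARE), asparagine synthetase: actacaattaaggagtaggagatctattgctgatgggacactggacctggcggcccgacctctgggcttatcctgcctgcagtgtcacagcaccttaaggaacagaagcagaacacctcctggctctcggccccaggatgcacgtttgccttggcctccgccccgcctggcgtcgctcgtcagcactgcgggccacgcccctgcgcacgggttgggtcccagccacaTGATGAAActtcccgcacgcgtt
Fgf21 (chr7:45615491-45615740, minus strand; CARE, opposite strand), a secreted stress hormone: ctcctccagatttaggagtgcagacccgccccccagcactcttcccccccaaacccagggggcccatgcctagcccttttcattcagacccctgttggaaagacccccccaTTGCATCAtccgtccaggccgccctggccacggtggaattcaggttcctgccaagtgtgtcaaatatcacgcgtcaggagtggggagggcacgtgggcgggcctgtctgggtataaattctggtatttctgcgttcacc

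Tunicamycin called 488 of 14470 tested genes in Perk-null cells (3.37%), 375 higher (2.59%) and 113 lower (0.781%). At least 2-fold, 152 rose (1.05%) and 46 fell (0.318%). Among the largest rises measured on every array were Angptl4, a secreted lipase inhibitor (19.2-fold), Fgf21 (17.2-fold), the amino acid transporter subunit Slc3a2 (8.82-fold), the chemokine Cxcl10 (7.88-fold), Chac1 (7.63-fold), the glycine transporter Slc6a9 (7.46-fold) and Derl3 (6.68-fold). The log2 change of Angptl4 (4.26) was 3.32 without untreated replicate 1 and 5.21 without untreated replicate 2. The 488 called genes changed in the same direction on both slides, which the call from these same arrays largely fixes, and 477 genes were called with the slide as a fixed term, 451 of them shared. Fitted on the 4 Perk-null arrays alone, limma called 0 genes, with 1971 at an unadjusted p under 0.05, so the calls rest on the spread estimated over all 24 arrays. The count was 148 without treated replicate 2, 233 without untreated replicate 1 and 258 without untreated replicate 2, the array with the mock file name.

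**Figure D1:**
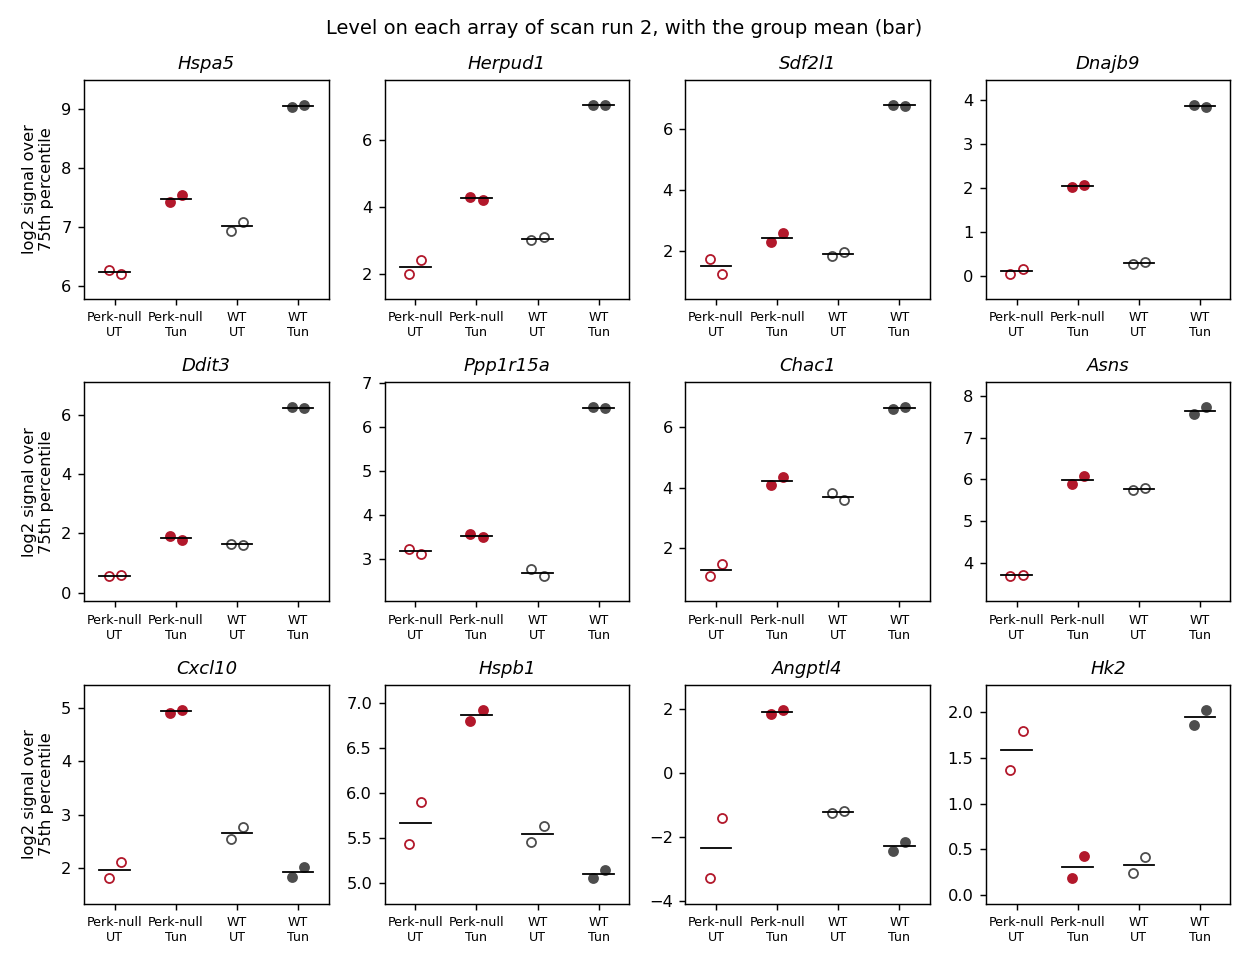
Level of 12 genes on each array of scan run 2, in log2 units relative to the 75th percentile of that array (y axis, a separate range for each gene), in Perk-null (red) and wild-type (grey) cells, untreated (UT, open) and with tunicamycin (Tun, filled); bars are means of 2 arrays. Treated Perk-null arrays read 2.28 and 2.57 for Sdf2l1 and 1.91 and 1.78 for Ddit3, below the treated wild-type arrays, Chac1 and Asns rose in parallel from different levels, and Cxcl10 rose in Perk-null but not in wild-type cells.

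Genes known as ATF6 targets, mostly ER chaperones and degradation factors, rose almost as a whole, and most rose less than in wild-type cells. Of 18 tested, 16 rose and 0 fell in Perk-null cells, with a median log2 change of 0.99 against 0.02 over all tested genes, and all 18 rose in wild-type cells with a median of 2.43 (12.2% of all tested genes rose there and 9.04% fell). Both treated arrays lay above both untreated arrays for all 18, against 26.6% of all genes. Hspa5 (BiP, the main ER chaperone) read 6.26 and 6.21 on the untreated and 7.42 and 7.54 on the treated arrays. The treated arrays lay above the untreated ones with no overlap, a change of 1.25 ± 0.13 (adjusted p = 7.17e-05), against 2.05 ± 0.13 in wild-type cells. Herpud1, which recruits ubiquitin ligases for ER-associated degradation, read 2.00 and 2.42 on the untreated and 4.30 and 4.22 on the treated arrays and rose by 2.05 ± 0.16 (adjusted p = 7.25e-06). Hsp90b1 (GRP94), Calr, Canx and Manf rose by 1.32, 0.94, 1.06 and 1.55 on the log2 scale. Pdia4 (0.69 ± 0.21) and Sel1l (0.51 ± 0.20) did not pass the test.

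The distance from wild type was uneven within that list. Responses of 15 of the 18 differed from wild type, all smaller (8.33% of all tested genes differed, 4.12% lower). Sdf2l1, a BiP cofactor, read 1.74 and 1.26 on the untreated and 2.28 and 2.57 on the treated arrays, while wild-type arrays went from 1.83 and 1.96 to 6.77 and 6.76. Its response differed by -3.95 ± 0.23 (adjusted p = 5.91e-07). Derl3 rose from -1.04 and -1.17 to 1.62 and 1.65 in Perk-null cells and differed by -4.29 ± 0.37, from an untreated level that was itself higher by 3.48 than in wild type. Creld2 and Hyou1, an ER chaperone of the Hsp110 family, differed by -2.64 ± 0.18 and -2.66 ± 0.24, and Hspa5 by -0.81 ± 0.18 (adjusted p = 0.0121). Hspa13, an ER and microsomal Hsp70, rose by 0.98 ± 0.15 without a called difference (0.53 ± 0.21). With any 1 Perk-null array left out, 13 to 16 of the 18 rose.

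Genes known as targets of spliced XBP1, which build and serve the secretory pathway, rose in the majority. Of 25 tested, 16 rose and 0 fell (2.59% of all tested genes rose), with a median of 0.74 against 0.99 in wild-type cells, and the response of 6 was smaller (4.12% of all tested genes). Dnajb9 (ERdj4), a BiP co-chaperone and a classic IRE1 readout, read 0.05 and 0.15 on the untreated and 2.01 and 2.07 on the treated arrays, 2 tight and separate pairs. It rose by 1.94 ± 0.12 (adjusted p = 9.7e-07), against 3.58 ± 0.12 in wild-type cells. Xbp1 itself rose from 4.30 and 4.24 to 5.22 and 5.39 (1.04 ± 0.15, adjusted p = 0.00157). Splicing was not measured. Spcs2 (signal peptidase), Sec63 (a translocon partner) and Tram1 rose by 1.36 ± 0.11, 1.09 ± 0.16 and 1.1 ± 0.24, with differences from wild type of -0.43, -0.30 and 0.19, none called. For Spcs2, which has 2 probes, the change ran from 0.66 to 1.46 over the alternative settings, and 2 of 20 lost the call. Left out in turn, treated replicate 2, untreated replicate 1 and untreated replicate 2 left 5, 9 and 10 of the 25 called.

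Among 8 tested RNAs known to be cut by IRE1 in fibroblasts, 1 fell and 0 rose in Perk-null cells (0.781% of all tested genes fell), while 5 fell in wild-type cells (9.04%), and the medians were -0.16 and -0.96. Scara3, a scavenger receptor, read 0.78 and 0.79 on the untreated and -0.27 and -0.24 on the treated arrays and fell by 1.04 ± 0.25 on the log2 scale (adjusted p = 0.0345), against -2.57 ± 0.25 in wild-type cells. Bloc1s1, the most used readout of this cleavage, read 4.76 and 4.67 on the untreated and 4.25 and 4.44 on the treated arrays, lower on both treated arrays, and its change of -0.37 ± 0.15 was not called (adjusted p = 0.26).

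The wider ER machinery rose in the same direction. ER chaperones and folding enzymes rose for 22 of 34, ER-associated degradation for 11 of 31, translocation and vesicle traffic for 18 of 50, and N-glycan synthesis for 10 of 40. Over all tested genes 2.59% rose. No gene of these lists fell, which says little where 0.781% of all tested genes fell. Some of their genes also stand in the ATF6 and XBP1 lists. Medians were 0.70, 0.45, 0.32 and 0.36 in Perk-null cells, and 1.60, 0.63, 0.49 and 0.52 in wild-type cells. Selenos, which tethers p97 to the ER membrane, read 2.72 and 2.65 on the untreated and 4.64 and 4.88 on the treated arrays, with the smallest adjusted p of the degradation genes (2.08 ± 0.12, adjusted p = 3.7e-07). Srprb, a subunit of the signal recognition particle receptor, rose by 1.29 ± 0.11 and the peptidyl-prolyl isomerase Fkbp2 by 1.16 ± 0.12. The differences of these genes from wild type were -0.47 ± 0.17, -0.19 ± 0.15 and -0.02 ± 0.16, none called. Without treated replicate 2, 12 folding and 5 traffic genes rose, without untreated replicate 2, 12 and 10, and without untreated replicate 1, 7 traffic genes; without treated replicate 2, 7 degradation genes did.

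Several enzymes of the pathway that the drug itself blocks rose, with no called difference from wild type. Stt3a, a catalytic subunit of the oligosaccharyltransferase that attaches N-glycans, read 0.81 and 0.97 on the untreated and 2.18 and 2.63 on the treated arrays and rose by 1.52 ± 0.17 (adjusted p = 0.000135). Alg5 and Alg2, which build the lipid-linked glycan, rose by 1.5 ± 0.12 and 1.40 ± 0.11, and Magt1 and Rpn1 by 1.17 ± 0.13 and 0.99 ± 0.13. Their differences from wild type ran from -0.51 ± 0.18 (Magt1) to 0.16 ± 0.23 (Stt3a), and none was called. Dpagt1, the enzyme tunicamycin inhibits, read 2.69 and 2.78 on the untreated and 3.04 and 3.17 on the treated arrays, above on both treated arrays, with a change of 0.37 ± 0.10 (adjusted p = 0.0675). In the list 3 of 40 responses were smaller than in wild type, beside 4.12% of all tested genes. These were Gfpt1 (-0.73 ± 0.16) and Gnpnat1 (-2.33 ± 0.26), which make precursors of the sugar donor, and the mannosyltransferase Alg12 (-2.01 ± 0.33).

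**Figure D2:**
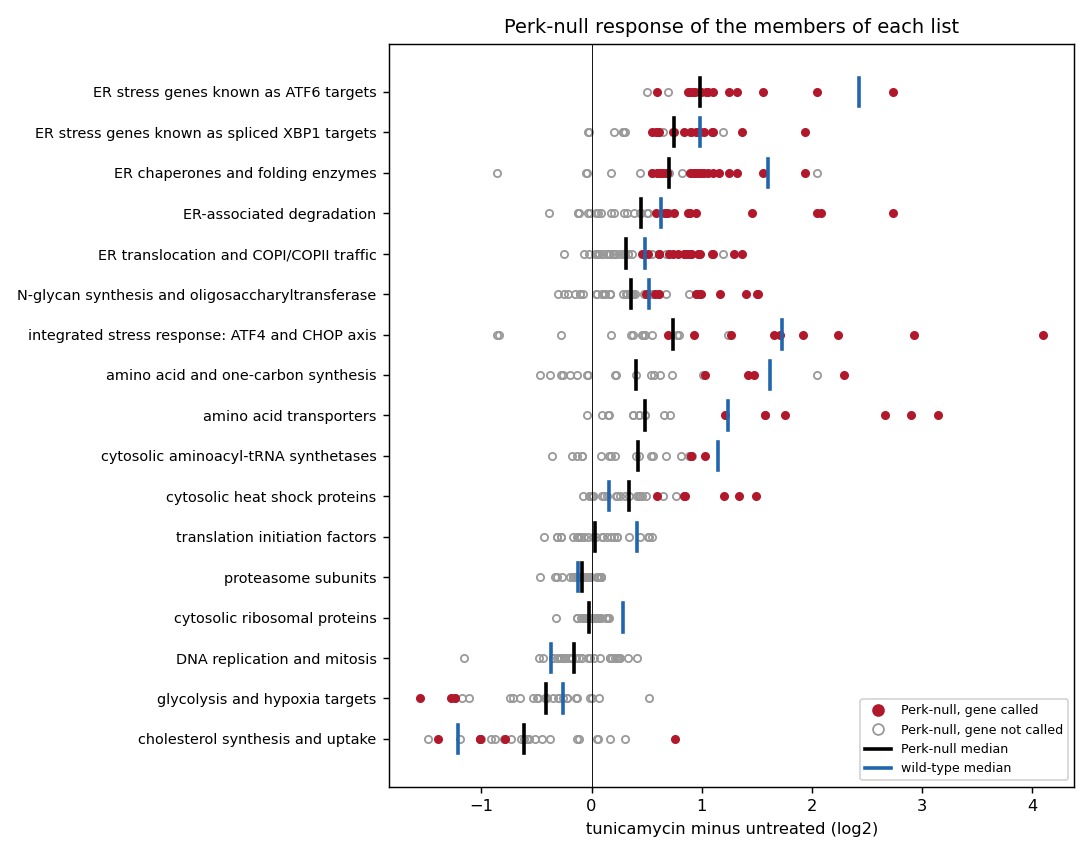
Perk-null change (treated minus untreated, log2, x axis) of every tested member of 17 gene lists (y axis), filled where the gene was called and open where it was not; black and blue bars are the medians of the Perk-null and wild-type changes. ATF6 targets had medians of 0.99 and 2.43, XBP1 targets 0.74 and 0.99, and heat shock genes 0.34 and 0.16.

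The ISR genes split. Of 22 tested, 9 rose and 0 fell in Perk-null cells (2.59% and 0.781% of all tested genes did). In wild-type cells 20 rose, beside 12.2% of all tested genes. Perk-null and wild-type medians were 0.74 and 1.73. The Perk-null response was smaller for 10 and larger for 0 (4.12% and 4.21% of all tested genes). Most of the 22 were not called in Perk-null cells. Ppp1r15a (GADD34), the stress-induced subunit of the eIF2α phosphatase, read 3.23 and 3.11 on the untreated and 3.56 and 3.5 on the treated arrays, against 2.76 and 2.60 and 6.45 and 6.43 on untreated and treated wild-type arrays. Its change of 0.36 ± 0.12 was not called (adjusted p = 0.126), and the difference from wild type was -3.40 ± 0.16 (adjusted p = 7.03e-08). Stc2, a secreted glycoprotein, and Ero1a, an ER oxidase, likewise were not called (0.47 ± 0.29 and -0.86 ± 0.37), with wild-type rises of 3.08 and 2.29.

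Ddit3 (CHOP, a transcription factor that promotes cell death) and Atf3 rose, but far less than in wild-type cells. Ddit3 read 0.56 and 0.59 on the untreated and 1.91 and 1.78 on the treated arrays, 2 separate pairs. It rose 2.41-fold (1.27 ± 0.20, adjusted p = 0.00244), with a difference from wild type of -3.34 ± 0.28 (adjusted p = 1.16e-05). Atf3 read -1.25 and -0.70 on the untreated and 0.81 and 0.66 on the treated arrays and rose by 1.71 ± 0.22 (adjusted p = 0.000507), with a difference of -2.69 ± 0.31.

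Another set of ISR genes rose with no called difference from wild type. Chac1 read 1.07 and 1.48 on the untreated and 4.09 and 4.33 on the treated arrays, a change of 2.93 ± 0.24 (adjusted p = 7.25e-06) beside 2.92 ± 0.24 in wild-type cells, and the difference was 0.01 ± 0.33. Trib3, a pseudokinase induced by ATF4 and CHOP, read 1.81 and 1.56 on the untreated and 3.91 and 3.94 on the treated arrays and rose by 2.24 ± 0.23 (adjusted p = 7.17e-05). Its difference from wild type was -0.82 ± 0.32 (adjusted p = 0.149). Fgf21 (4.10 ± 0.62), the stress factor Nupr1 (1.92 ± 0.37), Atf5 (1.66 ± 0.29) and Jdp2 (0.93 ± 0.14), both bZIP factors, and the death receptor Tnfrsf10b (0.69 ± 0.14) rose as well, with differences of -0.45, -0.14, 0.22, 0.09 and 0.24. The SE of these differences was from 0.20 (Tnfrsf10b) to 0.88 (Fgf21). Atf4 read 6.56 and 6.76 on the untreated and 7.85 and 7.95 on the treated arrays, with both treated arrays higher, and its change of 1.24 ± 0.97 was not called (adjusted p = 0.668). The spread the model gives this gene includes the Atf4-null arrays. Without treated replicate 2, 6 ISR genes rose.

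Most of these rises started from lower levels. Of the 9 ISR genes that rose, 6 were lower in untreated Perk-null than in untreated wild-type cells. Over all tested genes 40.8% differed and 24.7% were lower. The untreated Perk-null arrays enter the rise and this difference with opposite sign, which favours a lower untreated level among genes picked as risen. Chac1 differed by -2.42 ± 0.24 (adjusted p = 2.19e-06), Trib3 by -2.54 ± 0.23 and Atf5 by -1.89 ± 0.29. Treated Perk-null cells held Chac1 at 4.09 and 4.33, near the 3.81 and 3.59 of untreated and below the 6.59 and 6.65 of treated wild-type cells. Fgf21 and Atf3 did not differ by the test before treatment (0.39 ± 0.62 and -0.20 ± 0.22).

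Amino acid genes, many of them known ATF4 targets, followed the same split. Among 21 synthesis genes 4 rose, among 19 transporters 6 rose and among 20 cytosolic aminoacyl-tRNA synthetases 3 rose, with no fall in these lists. Over all tested genes 2.59% rose and 0.781% fell. In wild-type cells 15, 12 and 14 rose, beside 12.2% of all tested genes. Asns read 3.68 and 3.70 on the untreated and 5.88 and 6.08 on the treated arrays, and rose by 2.29 ± 0.23 (adjusted p = 7.17e-05), with no overlap between groups. The wild-type change was 1.87 ± 0.23, and the untreated level was lower by a log2 difference of -2.09 ± 0.23. Slc3a2, the heavy chain of several amino acid exchangers, read 4.53 and 4.57 on the untreated and 7.71 and 7.67 on the treated arrays, a change of 3.14 ± 0.18 (adjusted p = 3.7e-07) against 3.49 ± 0.18. Slc6a9, Slc7a1 (a cationic amino acid carrier) and Slc38a2 (a glutamine carrier) rose by 2.90 ± 0.27, 1.76 ± 0.29 and 1.58 ± 0.16, with no called difference. Slc7a11, the cystine carrier, was well above background on the treated arrays only. With the levels used here it was at least 1.9-fold higher there, the treated mean against the higher of the dimmest detected signal and the probe's own. Under the alternatives its log2 change ran from 0.44 to 2.80, so that bound holds for this processing alone.

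Other members of these lists were called in wild-type cells alone, with a called difference. Cth, which makes cysteine, read 0.41 and 0.62 on the untreated and 0.61 and 1.23 on the treated arrays and its change was not called (0.40 ± 0.33), while it rose by 3.91 ± 0.33 in wild-type cells (difference -3.50 ± 0.47, adjusted p = 0.000398). Slc7a3, another cationic carrier, read -0.12 and -0.42 on the untreated and -0.24 and -0.01 on the treated arrays, with a difference of -3.59 ± 0.32 (adjusted p = 1.26e-05). Mthfd2, Gpt2 and Psph, of one-carbon, alanine and serine synthesis, rose by 1.48 ± 0.29, 1.42 ± 0.23 and 1.03 ± 0.21, and only the Psph response was smaller than in wild type (-1.22). The synthetases called were Iars (1.03), Tars (0.90) and Cars (0.90). Of 26 translation initiation factors, limma called 0 in Perk-null cells (4 at an unadjusted p under 0.05), where 3.37% of all tested genes were called. In wild-type cells 10 rose, beside 12.2% of all tested genes. Without treated replicate 2, 1 synthesis gene, 3 transporters and 1 synthetase were called, and without untreated replicate 1, 2 synthesis genes, 4 transporters and 1 synthetase were. Without untreated replicate 2, 1 synthetase was.

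The searched elements were spread over these sets as follows. ERSE stood before 8 of the 15 ATF6 targets with a window (53.3%), and CARE before 7 of the 20 such ISR genes (35%). Among all 11478 tested genes with a window, 0.157% held ERSE and 3.07% CARE, and among 309 genes higher in Perk-null cells 3.24% and 5.83% did. Of the 38 risen genes whose rise was smaller than in wild type, 21.1% held ERSE and 5.26% CARE; of the 200 with no called difference, 1% and 7.5% did, and of the 71 with a larger rise, 0% and 1.41%. Hspa5, Creld2 and Derl3, printed above with ERSE, lie in the first of these sets, and Chac1, Asns and Fgf21, printed with CARE, in the second. Atf3, printed with CARE, and Herpud1, printed with CARE and ERSE-II, lie in the first. None of 88 genes that fell held ERSE or CARE. The sets were formed from the values reported here, and a match is a description of letters.

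**Figure D3:**
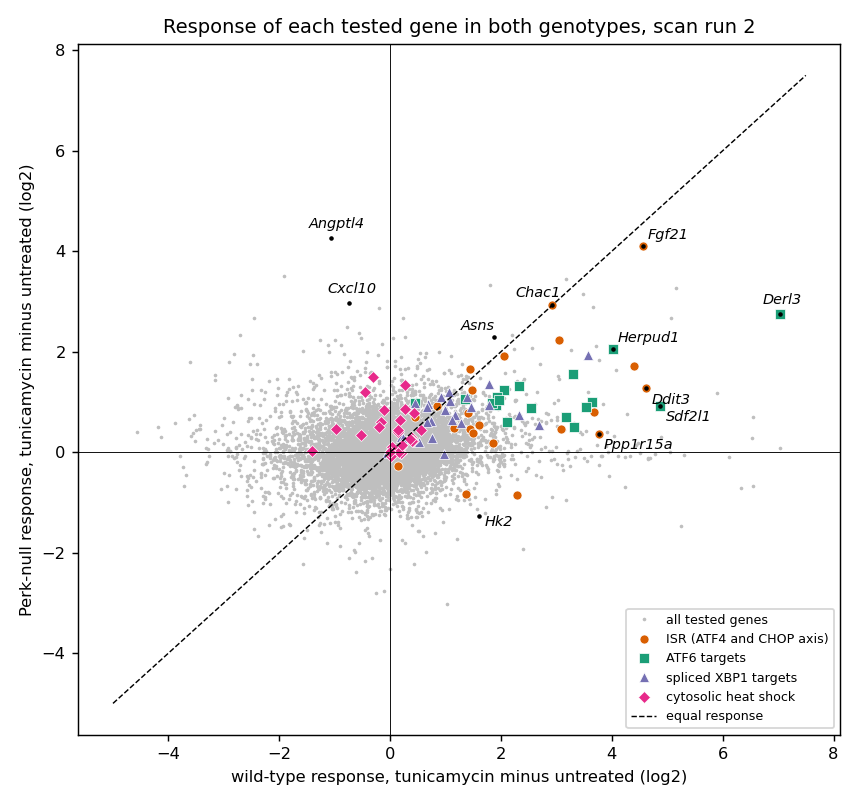
Perk-null response (y axis) against wild-type response (x axis) of every tested gene, both as treated minus untreated log2 differences in scan run 2, with 4 gene lists in colour and a dashed line of equal response. Chac1, Asns and Fgf21 lie near the line, Ddit3 and most ATF6 targets lie to its right, and Angptl4 and Cxcl10 rise in Perk-null cells without a wild-type rise.

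Some genes rose in Perk-null cells that did not rise, or fell, in wild-type cells. Cxcl10 read 1.81 and 2.11 on the untreated and 4.91 and 4.96 on the treated arrays, 2 tight and separate pairs, a rise of 2.98 ± 0.24 (adjusted p = 7.25e-06) against -0.74 ± 0.24 in wild-type cells (difference 3.72 ± 0.34, adjusted p = 1.48e-05). It was the 1 called gene of 17 chemokine and cytokine genes, 6 of which differed from wild type, all higher. In wild-type cells 6 of the 17 fell and 0 rose, with a median of -0.739 (9.04% of all tested genes fell there). Ccl2 and Cxcl5 (above background on 1 of 2 untreated arrays) changed by 0.98 ± 0.42 and 1.53 ± 0.50 in Perk-null cells, not called. A share of 4.21% of all tested genes differed from wild type upward, and 2.59% rose in Perk-null cells. Ifit1 was the 1 called gene among 26 interferon-stimulated genes, a count near that background (2.27 ± 0.53, adjusted p = 0.0291). Angptl4 read -3.30 and -1.41 on the untreated and 1.85 and 1.96 on the treated arrays, a rise of 4.26 ± 0.45 (adjusted p = 0.000102) with untreated arrays far apart and the treated arrays well above both, and it differed from wild type by 5.33 ± 0.64.

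Cytosolic heat shock genes, which HSF1 drives and which serve proteins outside the ER, formed a further set. Of 27 tested, 6 rose and 0 fell (2.59% and 0.781% of all tested genes did). In wild-type cells 1 rose and 3 fell, where 12.2% and 9.04% of all tested genes did, so those counts say little about the list. In Perk-null cells 8 responses were larger and 0 smaller than in wild type (4.21% and 4.12% of all tested genes). Both treated arrays lay above both untreated ones for 19 of the 27, against 26.6% of all genes, and the median change was 0.34. Hspb1 (HSP25) read 5.43 and 5.90 on the untreated and 6.80 and 6.92 on the treated arrays and rose by 1.20 ± 0.19 (adjusted p = 0.00274), against -0.45 ± 0.19, a difference of 1.65 ± 0.27 (adjusted p = 0.00194). Hsph1 (HSP105) read 3.88 and 3.75 on the untreated and 4.97 and 5.33 on the treated arrays and rose by 1.34 ± 0.16 (difference 1.08), and Hspa1a (inducible HSP70), Dnaja1 and Chordc1 rose by 1.49 ± 0.29, 0.84 ± 0.15 and 0.85 ± 0.19. Hsp90ab1, a constitutive HSP90, had 0.11 ± 0.16, not called. Without treated replicate 2 or untreated replicate 2, 2 of the 27 were called, and without untreated replicate 1, 3.

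The falls were fewer. Id1, an inhibitor of bHLH factors and a target of BMP signalling, read 2.21 and 2.06 on the untreated and -0.16 and -0.04 on the treated arrays and fell furthest, by 2.23 ± 0.21 on the log2 scale (adjusted p = 4.3e-05), with -1.57 ± 0.21 in wild-type cells. Id4 (-1.53 ± 0.31), Junb (-1.59 ± 0.30) and Fos (-1.55 ± 0.36) fell too, and so did the clock-linked repressor Bhlhe40 (-1.46 ± 0.29). The Fos change ran from -2.29 to -0.81 with 1 Perk-null array left out. Their wild-type changes were -2.45, -1.25, -1.49 and -1.93, and no difference was called. Jun, the partner of Fos in AP-1, read 3.61 and 4.10 on the untreated and 4.78 and 4.84 on the treated arrays and went the other way (0.95 ± 0.20, adjusted p = 0.0146), against -0.85 ± 0.20 in wild-type cells (difference 1.80 ± 0.28, adjusted p = 0.00112). Spag4, an outer dense fibre and nuclear envelope protein, was above background on untreated arrays only, at least 2.07-fold higher there with the levels used here. Its log2 change ran from -2.46 to -0.50 under the alternatives.

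Cholesterol synthesis and glycolysis genes lay lower on most treated arrays, with few calls. Of 25 cholesterol genes, both treated arrays lay below both untreated ones for 18, against 20.2% of all genes. The median was -0.61, and 4 fell (0.781% of all genes) and 1 rose (2.59%). In wild-type cells 19 fell (9.04% of all genes), with a median of -1.21. The 4 falls became 9 with quantile normalization, 10 with scan run 2 alone, 15 with array weights and 0 with 10 group means and a run term. Lss (lanosterol synthase) read 1.80 and 1.36 on the untreated and 0.35 and 0.03 on the treated arrays and fell by 1.39 ± 0.29 (adjusted p = 0.0166), and Hmgcs1 read 5.28 and 5.27 on the untreated and 3.70 and 3.88 on the treated arrays, a change of -1.48 ± 0.40 that was not called (adjusted p = 0.0604). Without treated replicate 2 or untreated replicate 1 limma called 0 falls, and without treated replicate 1 it called 1.

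For 20 of 26 glycolysis and hypoxia genes both treated arrays lay below both untreated ones, against 20.2% of all genes. The median was -0.41, and 3 fell, beside 0.781% of all tested genes. That count was 6 with quantile normalization or normexp, 10 with scan run 2 alone and 14 with array weights, but 2 with the replicate number as a block. With 1 Perk-null array left out the median ran from -0.531 to -0.335. Hk2, a hexokinase, read 1.37 and 1.80 on the untreated and 0.18 and 0.43 on the treated arrays and fell by 1.28 ± 0.21 (adjusted p = 0.00321), while it rose by 1.61 ± 0.21 in wild-type cells (difference -2.89 ± 0.30, adjusted p = 4.67e-05). The glucose transporter Slc2a3 (-1.24 ± 0.15) and the oxygen sensor Egln1 (-1.55 ± 0.31) were the others. The list stood high before treatment: 19 of the 26 were higher in untreated Perk-null than in untreated wild-type cells and 0 lower (16.1% and 24.7% over all tested genes), with a median difference of 0.87. The untreated Perk-null arrays enter this difference and the response with opposite sign, so the 2 are not independent. Vegfa, an angiogenic factor that hypoxia and ATF4 both induce, read 3.21 and 3.25 on the untreated and 2.37 and 2.40 on the treated arrays, lower on both treated arrays (-0.84 ± 0.34, adjusted p = 0.246), against 1.37 ± 0.34 in wild-type cells.

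With 3.37% of all tested genes called, counts near 0 say little about lists of this size: 31 proteasome subunits, 41 cytosolic ribosomal proteins, 21 mitochondrial proteases and chaperones and 34 DNA replication and mitosis genes had 0 called by limma. At an unadjusted p under 0.05 the counts were 2, 0, 2 and 3. Their median changes were -0.08, -0.03, -0.04 and -0.16. In wild-type cells 2 proteasome, 5 ribosomal, 8 mitochondrial and 14 cell cycle genes were called, beside 21.2% of all tested genes.

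Over all genes, the wild-type response of the same scan run had more calls, 3068 genes (21.2%). Of the 375 genes that rose in Perk-null cells, 198 (52.8%) rose in wild-type cells, which was 11.2% of the 1760 wild-type rises, and of the 113 that fell, 47 (41.6%) fell there, 3.59% of the 1308 wild-type falls. Over all tested genes 12.2% rose and 9.04% fell in wild-type cells. The Perk-null and wild-type groups share no array. The difference itself was called for 1205 genes (8.33%), 609 higher (4.21%) and 596 lower (4.12%) in Perk-null cells. The Perk-null response was smaller for 552 of the wild-type rises and for 508 of the wild-type falls, a count that shares its wild-type arrays with the difference. Leaving out any 1 wild-type array gave 661 to 683 differences, 661 without treated replicate 4.

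In 46 genes a called Perk-null change went against a called wild-type change. Of the 375 Perk-null rises, 31 fell in wild-type cells, and of the 113 falls, 15 rose there. Over all tested genes 9.04% fell and 12.2% rose in wild-type cells, so these counts lie near that background. Opposite calls largely fix a called difference. Pthlh, a parathyroid hormone-related peptide, read -3.17 and -3.14 on the untreated and -1.39 and -1.05 on the treated arrays, a rise of 1.94 ± 0.29 (adjusted p = 0.00153) against a wild-type change of -2.48 ± 0.29. Omd (well above background on 1 of 2 untreated Perk-null arrays) and Glt8d2, a matrix proteoglycan and a glycosyltransferase-like protein, rose by 2.67 ± 0.59 and 1.80 ± 0.37, against -2.45 and -2.91. Of the 12 lowest differences, 8 belonged to genes not well above background on any Perk-null array, so that their size there has no measured value. Acox2, a peroxisomal oxidase, was measured on all Perk-null arrays, read -1.93 and -1.45 on the untreated and -1.19 and -1.63 on the treated arrays, and differed by -6.24 ± 0.78 (adjusted p = 0.000256).

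The eIF2α A/A cells are the other genotype in which PERK cannot act through eIF2α, although in them no kinase can. Their response called 933 genes (6.45%; 3.88% higher and 2.57% lower), and 152 of the 375 Perk-null rises were among its 561 rises (40.5% of the first and 27.1% of the second). The difference of the responses was called for 166 genes (1.15%), 85 higher (0.587%) and 81 lower (0.56%) in Perk-null cells. The count was 18 without treated eIF2α A/A replicate 2 and at most 92 without any 1 of these 8 arrays. In that comparison each response was taken within its own scan run, and run and genotype cannot be told apart.

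The called differences of the ER and ISR groups lay in opposite directions. All 18 ATF6 targets and 19 of 25 XBP1 targets rose in eIF2α A/A cells, with medians of 1.35 and 0.77, and 3 responses of each list were smaller in Perk-null cells and 0 larger. Of the 22 ISR genes, 4 rose and 2 fell in eIF2α A/A cells with a median of 0.19, and 4 Perk-null responses were larger and 0 smaller. Over all tested genes 3.88% rose and 2.57% fell in eIF2α A/A cells. Asns changed by -0.03 ± 0.23 there, Trib3 by -0.14 ± 0.23 and Fgf21 by -1.26 ± 0.62, and the Perk-null responses were larger by 2.32 ± 0.33 (adjusted p = 0.0057), 2.38 ± 0.32 (adjusted p = 0.00501) and 5.36 ± 0.88 (adjusted p = 0.0132). Chac1 and Atf3 were larger by 2.05 ± 0.33 and 2.59 ± 0.31. Cxcl10 and Angptl4 had -0.32 ± 0.24 and -0.10 ± 0.45 in eIF2α A/A cells, and the phosphatase Dusp8 had -1.63 ± 0.26 against 1.71 ± 0.26. Ero1b, an ER oxidase, rose by 3.04 ± 0.23 in eIF2α A/A and by 0.96 ± 0.23 in Perk-null cells, a difference of -2.08 ± 0.33 (adjusted p = 0.0123).

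**Figure D4:**
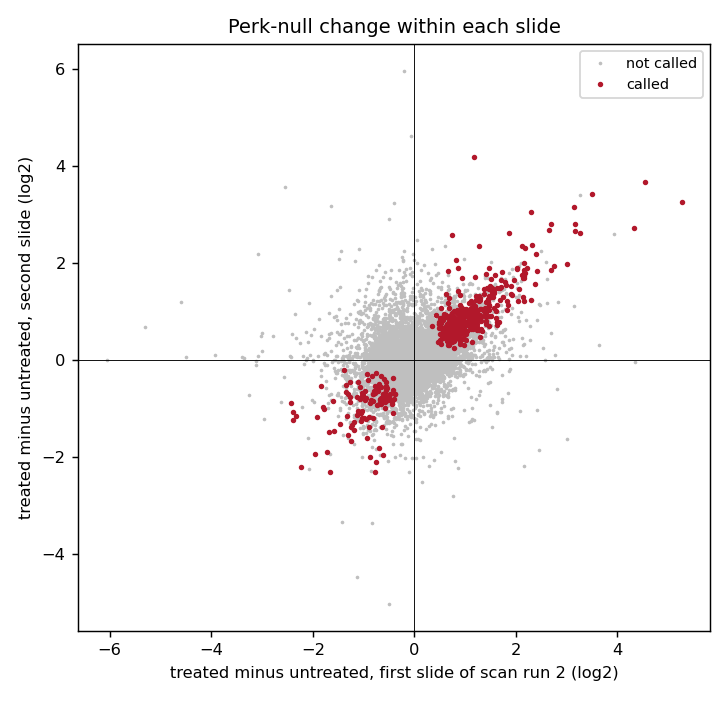
Treated minus untreated log2 difference of each tested gene on the first slide (x axis) and the second slide (y axis) of scan run 2, 1 pair of Perk-null arrays each; the 488 called genes are red. All 488 have the same sign on both slides, which their choice from these arrays largely fixes, and Pearson's r across all 14470 genes, which are not independent replicates, was 0.392.

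Within slides the leading groups kept their direction, which their change over these same 4 arrays largely fixes. The median change of the ATF6 targets was 1.06 on the first and 0.95 on the second slide, of the ISR genes 0.76 and 0.68, of the XBP1 targets 0.92 and 0.63, and of the heat shock genes 0.38 and 0.22. The cholesterol genes had -0.66 and -0.50. With the slide as a fixed term the ATF6 list kept 16 rises, the ISR list 9, the XBP1 list 16 and the heat shock list 5.

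Single calls rest on few arrays. Of 82 genes named here and called in the Perk-null response, 45 kept the call with any 1 of the 4 Perk-null arrays left out, among them Hspa5, Herpud1, Derl3, Dnajb9, Selenos, Stt3a, Chac1, Trib3, Asns, Fgf21, Ddit3, Atf3, Slc3a2, Cxcl10, Angptl4, Hspb1, Hsph1, Id1 and Hk2. The other 37 lost it in at least 1 such fit. Without treated replicate 2 these included Sdf2l1, Canx, Tram1, Atf5, Nupr1, Tnfrsf10b, Gpt2, Mthfd2, Psph, Slc7a1, Slc7a11, Iars, Tars, Hspa1a, Dnaja1, Chordc1, Jun, Junb, Fos, Id4, Lss, Egln1, Scara3, Ifit1, Ero1b, Omd and Glt8d2. Hyou1 lost it without untreated replicate 2, and Bhlhe40 without either of the untreated arrays or treated replicate 1. Every one of these kept its direction.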

How the data were processed

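Cy3-labelled RNA of 24 samples in 10 groups was hybridised to one-colour Agilent arrays, 1 array per sample, and the scans were read by Agilent Feature Extraction 10.7.1.1 into spot intensity, per the submitters' processing notes. The deposited processed signal is a linear intensity after background subtraction, per the file headers. The deposited table of log2 values held the same signals: 99.3% lay within 0.001 of log2 processed signal after a shift per array and centring per probe. Its Perk-null column medians were -0.19 and 0.31 (untreated) and 0.39 and -0.32 (treated), and its centring baseline stays unknown.

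Here each array's log2 75th percentile was subtracted, control spots and flagged outliers were left out, and each gene was read by its brightest probe. Of 55681 probes, 26631 matched 1 symbol through accessions in a RefSeq table (GRCm38.p6) and 29050 none, giving 20170 genes. Genes entered the test when all arrays of some group had the probe well above background (14470 tested, 5700 put aside). limma 3.58.1 (R 4.3.3, statmod 1.5.0) fitted a mean for each group and scan run over all 24 arrays (12 residual and 2.24 prior degrees of freedom), two-sided, with Benjamini-Hochberg adjustment per contrast. On simulated arrays of 14470 genes, the Perk-null contrast recovered 8%, 44%, 76% and 98% of genes changed by 0.5, 1, 2 and 3 (log2), with 8 false calls. The simulated noise was independent, with 1 spread per gene for all arrays. Real groups had median SDs from 0.057 to 0.31, and Perk-null arrays of 1 slide deviated together, so these shares may not hold for the real arrays.

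The samples, gene lists and tests were chosen with earlier results of these data known. Genes named in the text are the eIF2α kinases, the 20 largest rises and 15 largest falls with non-overlapping arrays, up to 5 called members of each list and all members of the ISR, ATF6, XBP1 and IRE1-cut lists, the 12 lowest and highest differences from wild type and from eIF2α A/A, the 8 lowest and highest untreated differences, and up to 8 opposite calls; predicted loci are not named. The cell type markers, and further members of these lists (Hmgcs1, Dpagt1, Gnpnat1, Alg12, Cth, Slc7a3, Gfpt1, Hsp90ab1, Ccl2, Cxcl5), were named after their values were seen. Alternatives changed the normalization, background correction, filter, model, arrays, weights, probe rule and blocks.

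Replicate numbers run across the slides. Deviations from the group means correlated at -0.473 between same-numbered Perk-null arrays and at 0.473 between arrays of 1 slide, so the numbers were not taken as pairs.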

Additional observations from a re-analysis of the deposited data

Results flagged for a closer look

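The responses differed between genotypes by a test of the difference itself (limma, adjusted p under 0.05): 1205 genes differed between Perk-null and wild-type cells and 166 between Perk-null and eIF2α A/A cells. Among the genes with the lowest differences from wild type, Acox2, measured on all Perk-null arrays, stood at -6.24 (log2). Among the highest were Angptl4 at 5.33, Omd at 5.12, Glt8d2 at 4.71 and Cxcl5 at 4.69, whose Perk-null change was not called. Pthlh (4.42) and Cxcl10 (3.72) rose in Perk-null and fell in wild-type cells.

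Against the eIF2α A/A response the Perk-null response was higher by 5.36 for Fgf21, 4.36 for Angptl4, 3.34 for Dusp8, 3.29 for Cxcl10 and 2.59 for Atf3, and it stood at -2.08 for Ero1b. The eIF2α A/A arrays come from another scan run, and how much the run bears on these values was not tested. Groups of 2 arrays are too small for a check of single outlying arrays.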

How the results depend on the processing

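Of the 82 named genes called in the Perk-null response, all kept direction under every alternative, and all kept the call with quantile normalization, array weights by scan run, the slide as a random or fixed block, and the authors' deposited log2 values. The call was lost by 8 with normexp background correction, 6 without the filter on dim probes, 16 with 10 group means and a run term, 3 with scan run 2 alone, 2 with the mean of all probes, and all 82 with the Perk-null arrays alone. The stricter filter left 81 to test, all still called.

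The Perk-null count of 488 became 923 with scan run 2 alone, 1803 with array weights, of which 65.1% were higher against 76.8%, and 0 with the Perk-null arrays alone, and 148 to 342 with 1 array left out. The count of differences from wild type (1205) became 1903 with 10 group means, 2295 with scan run 2 alone, 3051 with weights, and 661 to 936 with 1 array left out. The count against eIF2α A/A (166) became 89 with normexp, 66 without the filter, 51 with 10 group means, 2411 with weights, and 18 to 92 with 1 array left out. The untreated count (5898) stayed within 1.5 times, and with 1 array left out was 4205 to 4859. Arrays of other scan runs differ in spread from run 2, and how far that sets these counts was not tested.

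With the replicate number as a block, 342 genes were called in the Perk-null response (284 shared), 953 differed from wild type and 71 from eIF2α A/A, and 64 of the 82 named calls held. The crossed pairing, which is that by slide, called 477, and no named call was lost; it and the following were chosen after seeing the data. The first slide alone gave 194, 587 and 38 for the 3 comparisons, the second slide alone 84, 511 and 21, and the fixed slide block with run 2 alone 1329 and 2958.

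Direction turned in genes not called in Perk-null cells. On the second slide alone Cth stood at -0.014, Eif2ak1 at 0.015, Gfpt1 at -0.068 and Gnpnat1 at -0.165, and on the first Alg12 at -0.083. With the mean of all probes Gfpt1 stood at -0.056 and Gnpnat1 at -0.105. With 1 array left out, Eif2ak1 ran from -0.311 to 0.032, Eif2ak2 from -0.175 to 0.012, Gfpt1 from -0.024 to 0.105, Gnpnat1 from -0.123 to 0.449, Alg12 from -0.065 to 0.398 and Slc7a3 from -0.002265 to 0.299. With 2 arrays a group the number of arrays limits these values, and 48.9% to 56.4% of spots were well above background.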

Other observations

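Of 17 fatty acid and triglyceride synthesis genes 2 fell and 1 rose in Perk-null cells, where 0.781% of all tested genes fell and 2.59% rose. Dgat2, which makes the last bond of triglycerides, read 2.86 and 3.05 on the untreated and 1.73 and 1.40 on the treated arrays and fell by 1.39 ± 0.24 on the log2 scale (limma, adjusted p = 0.00382), while its wild-type change was 0.96 ± 0.24 (difference -2.35 ± 0.33, adjusted p = 0.000667). Acaca, the first enzyme of fatty acid synthesis, changed by -0.59 ± 0.11, and the elongase Elovl1 by 0.55 ± 0.11. Of 37 matrix genes 2 rose and 1 fell, a count near that background: the collagen chaperone Serpinh1 by 1.08 ± 0.15, the laminin chain Lamb1 by 0.82 ± 0.17 and the fibulin Fbln2 by -1.32 ± 0.32.

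Ttc17, a tetratricopeptide repeat protein, read 1.60 and 1.30 on the untreated and 3.65 and 3.92 on the treated arrays and rose 5.06-fold (2.34 ± 0.16, limma adjusted p = 1.87e-06), beside 2.20 ± 0.16 in wild-type and 1.61 ± 0.16 in eIF2α A/A cells. Ubxn8, an ER membrane partner of p97, read 0.32 and 0.20 on the untreated and 1.68 and 1.75 on the treated arrays and rose by 1.46 ± 0.16, more than in wild-type cells (difference 0.90 ± 0.23, adjusted p = 0.0264). Of 28 immediate early and NF-κB feedback genes 2 rose and 2 fell, and besides Jun the other rise was Klf4, a zinc finger factor (1.05 ± 0.14). Of 35 autophagy genes 2 rose, Atg13 (0.61 ± 0.13) and Uvrag (0.64 ± 0.15), and of 23 antioxidant genes 2, Slc7a11 and Gclc (0.81 ± 0.20), which makes glutathione. Beside the 2.59% of all tested genes that rose, these counts say little about either list, and Atg13, Uvrag, Gclc and Slc7a11 lost the call with some arrays left out.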
